A study of Mus musculus with 8 samples.

Results

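The genes followed mark disease-associated microglia: Apoe, Spp1, Lpl, Itgax, Cst7, Clec7a, Gpnmb, Lgals3, Cd9 and Cd63. Of these 10 members, chosen by symbol alone, 9 were found among the 27998 gene identifiers of the series, and Clec7a was not analysed here. RNA of single YFP-sorted cells from the lumbar spinal cord of C57BL/6 mice was counted in 8 libraries, of which 4 were labelled control (Cx3cr1-yfp-creER/+) and 4 A20 cKO (Cx3cr1-yfp-creER/+; Tnfaip3 fl/fl). Both genotypes had 1 naive library and 1 library for each of days 1, 2 and 3 after transection of both sciatic nerves. All animals were adult, carried YFP and a tamoxifen-inducible Cre at the Cx3cr1 locus, which is also active in other myeloid cells, and had been given tamoxifen. Cords of several animals were pooled for each library, and the cells were handled in serum-free medium with TGF-β2, IL34 and cholesterol before capture. Each group was 1 library, so no test between groups was possible. Ranges in parentheses are 95% intervals that cover counting error only, not variation between animals or preparations.

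Disease-associated microglia are a state described around amyloid plaques, in demyelination, in ageing and in early postnatal white matter, in which homeostatic genes such as P2ry12 and Tmem119 fall while genes of lipid uptake, lysosomes and phagocytosis rise. The lipoprotein receptor TREM2 with its adaptor TYROBP is required for the full state, and APOE is one of its ligands. A20, the protein encoded by Tnfaip3, is a ubiquitin-editing enzyme that restrains NF-κB signalling. Among the members, Apoe encodes the main lipid carrier of the brain, Lpl a lipase that hydrolyses lipoprotein triglycerides, and Spp1 the secreted matrix protein osteopontin. Itgax encodes the integrin CD11c, Lgals3 the carbohydrate-binding protein galectin-3, Gpnmb a transmembrane glycoprotein of lipid-laden macrophages, and Cst7 cystatin F, an inhibitor of lysosomal cysteine proteases. Cd9 and Cd63 encode tetraspanins of the cell surface and of late endosomes.

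Libraries held between 579 and 3585 barcodes. Cells with at least 1000 UMIs (unique molecular identifiers, each counting 1 captured RNA molecule), at least 500 genes and no more than 10% of UMIs from mitochondrial genes passed the filter, 14626 of 14883 barcodes in all, with a median of 2780 to 4274 UMIs per library. Tnfaip3 itself was counted at 6.83 to 25.3 CPM (UMIs of the gene per 1000000 UMIs of the library) in the control libraries and at 42.3 to 67.7 CPM in the A20 cKO libraries, so it was higher, not lower, in the libraries labelled as knockout. The chemistry reads the 3′ end of transcripts and the deleted part of the gene is not given in the sources used here, so this level neither checks nor contradicts the labels, and the genotype names below are those of the labels. Together with control day 3, the 4 libraries of A20 cKO, called linked here, stood apart from the other 3. They shared 256 barcodes over their 10 pairs, a median of 13.7 per 1000000 barcode pairs, against 27 over the 3 pairs among the other libraries, a median of 1.59. The 15 pairs across the split shared 98, a median of 1.94. Their highest rate, 8.83, exceeded the lowest of the linked pairs, 5.41, so the rates overlapped. Markers of other cell types moved with the same split: the neutrophil list summed to between 30.3 and 54.8 CPM in the linked libraries and to at most 0.142 CPM in the others, and Ttr of the choroid plexus lay between 126 and 397 CPM against 0 in the others. Comparisons of control day 3, or of A20 cKO naive, with control naive cross this split. Genotype or day cannot be told apart from it there. Inside the linked libraries, A20 cKO naive stood apart from days 1, 2 and 3 of A20 cKO. Pairs among these days had barcode rates of 33.4 to 67.6, and A20 cKO naive had 9.11 to 11.5 with them. Ttr was at 126 CPM in A20 cKO naive and at 387 to 397 CPM on these days. The neutrophil list did not follow, at 45.5 CPM against 30.3 to 54.8 CPM. In comparisons of these days with A20 cKO naive, day cannot be told apart from this difference. Microglia were the labelled cell type, and of cells thinned to 2000 UMIs Tmem119 was found in 89.96% to 99.8% per library. P2ry12 was found in 99.8% of control naive cells and in 74.0% of A20 cKO day 3 cells. The monocyte marker Ccr2 stayed between 0.330 and 2.36 CPM and the border macrophage marker Cd163 at 0 in all 8 libraries. Plac8, also a monocyte marker, lay between 22.1 and 83.4 CPM in the linked libraries and at most at 1.85 CPM in the others. Other border macrophage markers were found. Ms4a7 was at most at 0.137 CPM in control, but at 4.93, 3.30, 1.65 and 11.02 CPM in A20 cKO naive and days 1, 2 and 3. Mrc1 reached at most 2.31 CPM, in A20 cKO day 2. Stab1 lay between 132.5 and 204.3 CPM in control and between 135.4 and 217.6 CPM in A20 cKO. Whether the Ms4a7 UMIs came from border macrophages was not tested. In sums over a library, more cells with a gene and more RNA per cell cannot be told apart, and shares of cells are therefore given beside the levels.

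The members are described first by their level, the UMI sum of a gene over the kept cells of a library as CPM. Apoe (ENSMUSG00000002985, GRCm38 chr7:19696109-19699188, minus strand) stood at 1113 CPM (1062 to 1166) in control naive, and 489.8, 469.7 and 310.0 (297 to 323) on days 1, 2 and 3. In the A20 cKO libraries Apoe stood at 854 CPM (835 to 873) in naive, and 1333, 1573 and 1928 (1875 to 1983) on days 1, 2 and 3. The order by day was thus falling in control and rising in A20 cKO. The intervals of control days 1 and 2 overlapped, though, at 478 to 502 and 459 to 481 CPM. From control day 2 to day 3 the step crosses the split between libraries. All day 1, 2 and 3 libraries of A20 cKO lay above every control library. Control naive, however, rested on few cells for this gene, because 1 cell with 375 Apoe UMIs held 20.8% of the library's Apoe UMIs and the top 1% of cells held 42.7%. In A20 cKO day 3 the top 1% of cells held 11.2%. Astrocytes also express Apoe. The list of 7 astrocyte markers summed to 105 to 164 CPM in control naive and days 1 and 2, and to 262 CPM in control day 3. In the A20 cKO libraries it summed to 304 to 395 CPM, so all linked libraries lay above the others. Most of these sums came from Slc1a3. Gfap was at most at 0.961 CPM in control and between 2.58 and 6.26 CPM in A20 cKO. Mbp of oligodendrocytes was found in 13.4% to 21.9% of thinned cells of the linked libraries and in 2.64% to 4.98% in the others. Without cells holding at least 3 markers of 1 other cell type, all 66 ratios of members between libraries (below) stayed within their counting intervals. That filter reaches only cells with several such markers, and the part of other cell types in the Apoe levels was not tested further.

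Cst7 (ENSMUSG00000068129, chr2:150570415-150578944, plus strand) was counted at 9.87 CPM (5.64 to 16.0) in control naive, and 11.8, 36.4 (33.4 to 39.4) and 35.0 (30.8 to 39.6) on days 1, 2 and 3. The A20 cKO libraries held 43.3 CPM (39.1 to 47.8) in naive, and 71.7, 96.6 and 122 (108 to 136) on days 1, 2 and 3. The intervals of control naive and day 1, and of control days 2 and 3, overlapped, and every A20 cKO library lay above every control library, although the interval of A20 cKO naive touched those of control days 2 and 3. Itgax (ENSMUSG00000030789, chr7:128129547-128150657, plus strand) was scarce in control, at 6.17 CPM (2.96 to 11.3) in naive, and 1.56, 2.97 and 3.98 (2.67 to 5.72) on days 1, 2 and 3. The A20 cKO levels were 21.9 CPM (18.9 to 25.2) in naive, and 23.4 (18.3 to 29.6), 49.1 (41.5 to 57.7) and 60.6 (51.4 to 71.0) on days 1, 2 and 3. The A20 cKO values fell into a lower pair, naive and day 1, and a higher pair, days 2 and 3, with overlapping intervals inside each pair, and none reached down to a control library.

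Lgals3 (ENSMUSG00000050335, chr14:47367751-47386160, plus strand) was counted at 11.1 CPM (6.58 to 17.6) in control naive, and 5.41, 14.6 and 7.27 on days 1, 2 and 3. Its A20 cKO levels were 20.3 CPM (17.4 to 23.5) in naive, and 17.8, 21.8 and 54.7 (46.0 to 64.6) on days 1, 2 and 3. Only A20 cKO day 3 stood clear of the other A20 cKO libraries, whose intervals overlapped one another. In the control day 2 library 1 cell with 56 Lgals3 UMIs held 24.2% of the UMIs of that gene. Gpnmb (ENSMUSG00000029816, chr6:49036546-49070929, plus strand) had 1 UMI in A20 cKO naive, 2 in A20 cKO day 1 and 0 in the other 6 libraries, which allows up to 1.85 CPM in the shallowest and 0.190 CPM in the deepest of the control libraries.

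Lpl and Spp1 did not follow that order. Lpl (ENSMUSG00000015568, chr8:68880491-68907448, plus strand) was highest in control naive, at 69.7 CPM (57.5 to 83.8), followed by 45.5, 40.7 and 28.3 (24.5 to 32.4) on days 1, 2 and 3. The A20 cKO libraries held 21.6 CPM (18.7 to 24.9) in naive, and 46.9, 33.3 and 45.6 (37.7 to 54.7) on days 1, 2 and 3. Thus the lowest library was A20 cKO naive, and the levels of A20 cKO days 1 and 3 overlapped those of control days 1 and 2. Spp1 (ENSMUSG00000029304, chr5:104435118-104441050, plus strand) was counted at 22.8 CPM (16.1 to 31.5) in control naive, and 3.41, 25.04 and 61.3 (55.8 to 67.3) on days 1, 2 and 3. Its A20 cKO levels were 9.08, 11.2 and 8.57 CPM in naive, day 1 and day 2, with overlapping intervals, and 38.6 (31.3 to 47.0) on day 3. Control day 3 was the highest library for Spp1, but 1 cell with 170 Spp1 UMIs held 38.03% of them, and in control naive 1 cell held 54.1%.

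The tetraspanins were found in most cells. Cd9 (ENSMUSG00000030342, chr6:125460266-125494791, minus strand) stood at 1775 CPM in control naive, and 1174, 1126 and 924 on days 1, 2 and 3, and at 1608, 961, 1309.9 and 1839 CPM in A20 cKO naive and days 1, 2 and 3. It was lowest on day 3 in control and on day 1 in A20 cKO. Cd63 (ENSMUSG00000025351, chr10:128900989-128912822, plus strand) varied less, with 459.7, 533, 539 and 511 CPM in control naive and days 1, 2 and 3, and 549, 591, 759.8 and 845 CPM in the matching A20 cKO libraries.

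**Figure D1:**
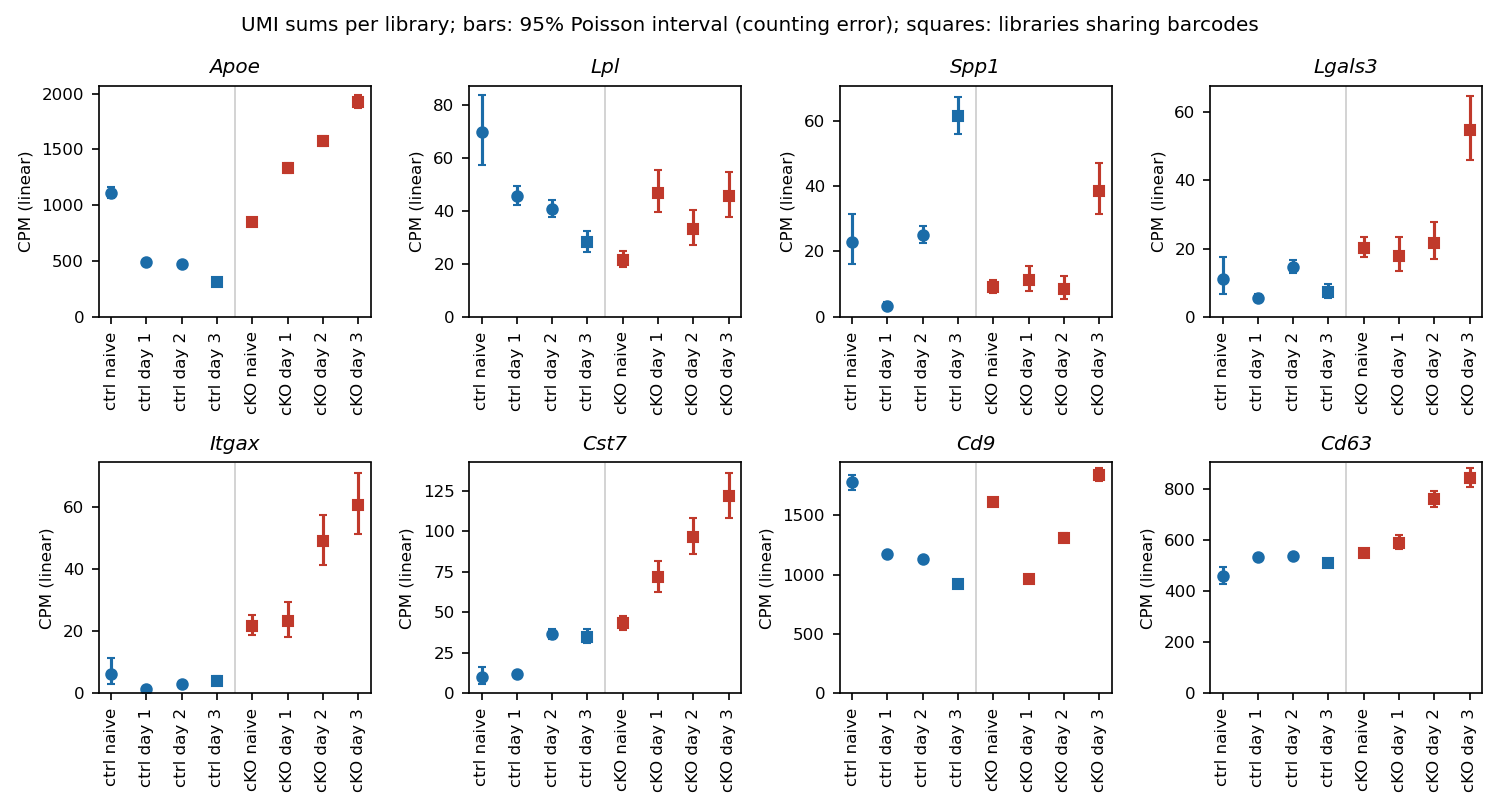
Level of 8 members in each library, in CPM on linear axes that start at 0, with 1 panel per gene. Blue points are control and red points A20 cKO libraries, squares mark the libraries that shared barcodes, and bars are 95% Poisson intervals; Apoe runs down from 1113 to 310.0 CPM over the control libraries and up from 854 to 1928 CPM over the A20 cKO libraries. Gpnmb, with 3 UMIs in all, is left out.

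A set of 4 members, Apoe, Itgax, Cst7 and Lgals3, was at least 2-fold higher in A20 cKO day 3 than in both A20 cKO naive and control day 3 (values below), so their promoters are shown, together with that of Spp1, which was higher against the first of these only. The windows are the 250 bases before the RefSeq start on GRCm38.p6, written 5′ to 3′ on the strand of the gene, with motif matches in capitals, and 8 of the 9 members had one. The Lgals3 window lies 6109 bases downstream of the 5′ end of the GENCODE gene.
Apoe, chr7:19699189-19699438, minus strand: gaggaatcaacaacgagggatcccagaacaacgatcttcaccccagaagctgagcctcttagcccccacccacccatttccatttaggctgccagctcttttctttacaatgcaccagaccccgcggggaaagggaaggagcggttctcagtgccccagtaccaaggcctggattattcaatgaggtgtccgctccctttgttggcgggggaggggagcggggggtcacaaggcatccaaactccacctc
Itgax, chr7:128129300-128129549, plus strand: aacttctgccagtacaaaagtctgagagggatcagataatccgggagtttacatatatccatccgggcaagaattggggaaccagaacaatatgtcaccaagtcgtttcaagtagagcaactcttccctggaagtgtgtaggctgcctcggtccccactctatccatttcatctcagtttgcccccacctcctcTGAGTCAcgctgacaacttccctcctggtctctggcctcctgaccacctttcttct
Cst7, chr2:150570165-150570414, plus strand: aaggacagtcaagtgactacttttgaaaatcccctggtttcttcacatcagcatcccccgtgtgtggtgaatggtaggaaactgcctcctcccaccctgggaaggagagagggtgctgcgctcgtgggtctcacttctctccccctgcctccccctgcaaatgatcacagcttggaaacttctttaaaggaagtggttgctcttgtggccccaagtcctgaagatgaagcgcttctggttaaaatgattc
Lgals3, chr14:47373610-47373859, plus strand: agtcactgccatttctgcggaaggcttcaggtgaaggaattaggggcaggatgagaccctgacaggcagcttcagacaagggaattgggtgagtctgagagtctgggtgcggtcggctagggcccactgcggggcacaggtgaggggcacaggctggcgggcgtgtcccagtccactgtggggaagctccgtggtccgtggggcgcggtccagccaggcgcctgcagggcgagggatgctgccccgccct
Spp1, chr5:104434861-104435110, plus strand: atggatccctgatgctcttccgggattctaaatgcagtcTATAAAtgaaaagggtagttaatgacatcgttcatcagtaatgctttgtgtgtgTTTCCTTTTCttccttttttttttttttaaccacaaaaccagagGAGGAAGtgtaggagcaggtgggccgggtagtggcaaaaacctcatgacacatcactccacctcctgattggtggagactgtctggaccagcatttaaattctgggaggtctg
The 6 motifs searched on both strands were AP-1 (TGANTCA), PU.1 core (GAGGAAG), κB (GGGNNTTCC), E-box (CACGTG), IRF-type (GAAA, any 2 bases, GAAA) and TATA box (TATAAA). The capitals in Itgax are an AP-1 match that begins 56 bases before the start, a motif found in 6.75% of 32851 mouse windows of the same length. In Spp1 they are, from left to right, a TATA box match at 211 bases, an IRF-type match on the opposite strand at 157 bases and a PU.1 core match at 113 bases before the start, motifs found in 12.4%, 2.98% and 10.6% of windows. The Apoe, Cst7 and Lgals3 windows held none of the 6 motifs as spelled, and neither did those of Cd9 and Gpnmb, while Cd63 held a PU.1 core match. The Cd63 window lies 8356 bases downstream of the 5′ end of the GENCODE gene. No motif was shared by the 4 members, and a match is only a match of letters.

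Whether members differed between naive and injured control animals was asked of each day against control naive, with 0.5 UMIs added to each sum, on genes whose sums held together 100 UMIs or more. Of 5 members tested on day 1, none was at least 2-fold higher and 1, Apoe, was at least 2-fold lower, where 3.82% of all genes tested were higher and 7.25% lower. The log2 ratio of Apoe was −1.18 (−1.26 to −1.11), those of Lpl and Cd9 were −0.62 and −0.60, and those of Cst7 and Cd63 were 0.22 and 0.21. The Apoe call was lost without the 1 cell with the most Apoe UMIs in each library, which gave −0.89. The median gene stood at −0.13 in this comparison.

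On day 2, 7 members were tested. Cst7 was higher by 1.84 (1.17 to 2.70) on the log2 scale and Apoe lower at −1.25, where 5.92% of all genes were higher and 6.28% lower by at least 2-fold. Without the cell with the most Apoe UMIs in each library the Apoe log2 ratio was −0.93, so this call too rested on 1 control naive cell. Lpl was at −0.78, Cd9 at −0.66, Cd63 at 0.23, Lgals3 at 0.36 and Spp1 at 0.12, and the intervals of Lgals3 and Spp1 included 0. Itgax had too few UMIs.

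On day 3, 6 members were tested, and this comparison crosses the split between libraries. Apoe (−1.84) and Lpl (−1.31) were at least 2-fold lower, as were 2.32% of all genes, and Cst7 (1.78) and Spp1 (1.41) were at least 2-fold higher, as were 8.76%. The calls thus went in both directions, with Cd9 at −0.94 and Cd63 at 0.15. Without the cell with the most UMIs of each gene the Apoe log2 ratio was −1.56 and that of Cst7 was 1.94.

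In A20 cKO, where the 4 libraries are all linked, each day was set against A20 cKO naive. That library shared barcodes with the A20 cKO days at lower rates than these did with one another. Day cannot be told apart from this difference between libraries in any of these comparisons. On day 1, 8 members were tested and Lpl was higher by 1.12 (0.79 to 1.44), where 1.56% of all genes were higher by at least 2-fold and 1.39% lower. Apoe stood at 0.64 and Cst7 at 0.73, while Cd9 was lower at −0.74 without reaching 2-fold. Restricted to cells with UMIs of both P2ry12 and Tmem119, a choice made after the data were seen, the Lpl log2 ratio was 0.99 and no member passed 2-fold.

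On day 2, Itgax (1.17, 0.85 to 1.48) and Cst7 (1.16, 0.93 to 1.38) were at least 2-fold higher, as were 2.86% of all genes, and no member was lower, as were 2.65%. Apoe stood at 0.88, Lpl at 0.62 and Cd63 at 0.47. Spp1 and Lgals3 had log2 ratios of −0.07 and 0.11, with intervals that included 0.

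On day 3, 6 of 8 members tested were at least 2-fold higher and none was lower, where 1.92% of all 8797 genes were higher and 2.00% lower. The log2 ratio was 2.08 (1.65 to 2.53) for Spp1, 1.49 (1.27 to 1.71) for Cst7, 1.47 (1.16 to 1.78) for Itgax, 1.43 (1.10 to 1.76) for Lgals3, 1.18 (1.12 to 1.23) for Apoe and 1.08 (0.73 to 1.42) for Lpl. Cd63 stood at 0.62 and Cd9 at 0.19. The median of the 8 members was 1.30 and that of all genes −0.10. In cells with UMIs of both P2ry12 and Tmem119, Apoe (1.17), Cst7 (1.52), Itgax (1.42) and Lgals3 (1.20) kept their calls, whereas Lpl was at 0.82 and lost its call. Lpl also fell short of 2-fold as a mean over cells (0.85) and without cells holding at least 3 markers of 1 other cell type (0.92).

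**Figure D2:**
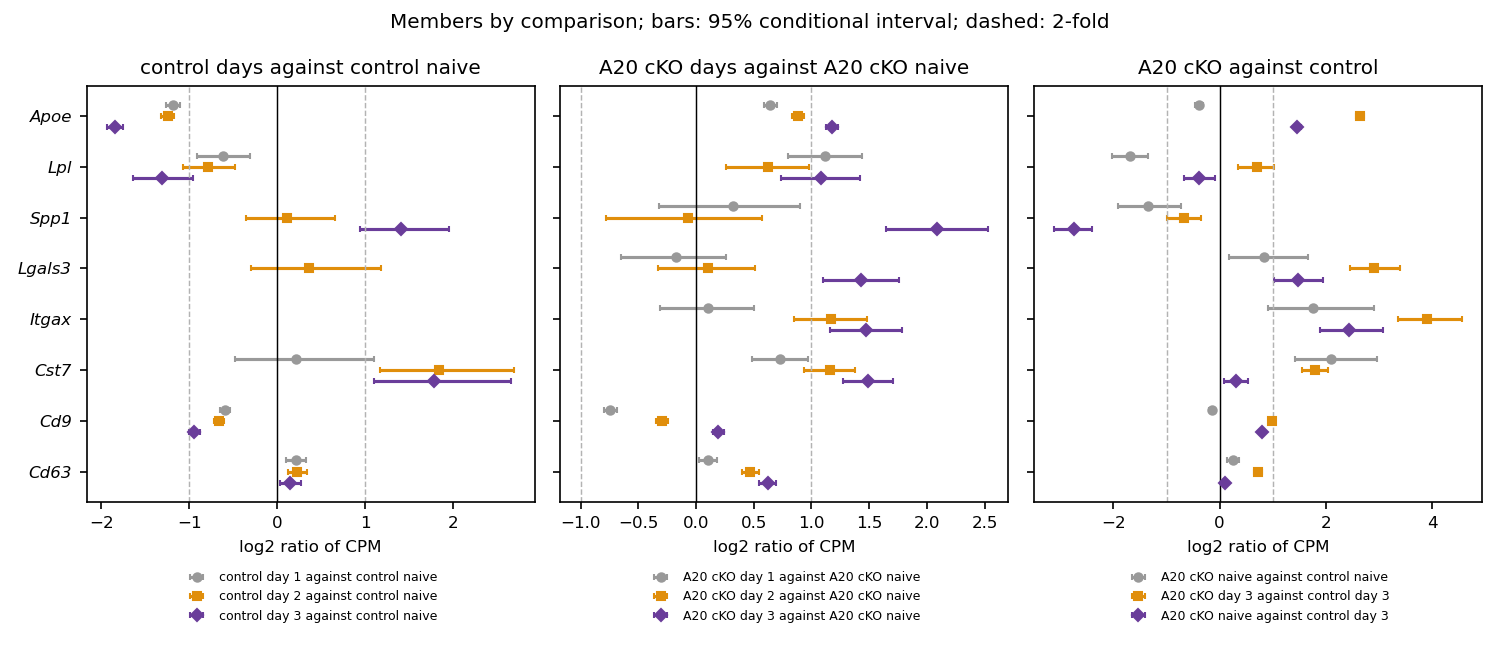
Log2 ratios of CPM of the members in the 9 comparisons, with 95% conditional intervals that cover counting error only; left, control days against control naive, middle, A20 cKO days against A20 cKO naive, right, A20 cKO against control. Dashed lines mark 2-fold, the scale of the horizontal axis differs between panels, and members with under 100 UMIs in both libraries together are not drawn. In the middle panel the 8 day 3 points all lie to the right of 0, from 0.19 for Cd9 to 2.08 for Spp1, while the control panel holds points on both sides.

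The genotypes were compared in naive animals and on day 3. The naive comparison crosses the split between libraries. Of 8 members tested there, Cst7 (2.09, 1.41 to 2.95) and Itgax (1.76, 0.92 to 2.91) were at least 2-fold higher in A20 cKO, as were 7.43% of all genes, and Lpl (−1.69, −2.03 to −1.34) and Spp1 (−1.34, −1.91 to −0.73) were at least 2-fold lower, as were 2.22%. Apoe stood at −0.38. The Spp1 value rested on 1 control naive cell, since without the cell with the most UMIs in each library it was −0.45, and Lgals3, at 0.83, became 1.03.

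On day 3, both libraries are linked. Apoe was higher in A20 cKO by 2.64 (2.56 to 2.71) on the log2 scale, Itgax by 3.91 (3.35 to 4.55), Lgals3 by 2.90 (2.44 to 3.40) and Cst7 by 1.80 (1.55 to 2.04), which made 4 of 8 members at least 2-fold higher where 1.86% of all 8488 genes were. No member was at least 2-fold lower, as were 2.40% of genes. Cd9 (0.99), Cd63 (0.73) and Lpl (0.69) were higher by less, and Spp1 was lower at −0.66, with an interval below 0. The median gene stood at −0.12, and relative to it Cd9 was at 1.11, past 2-fold. In cells with UMIs of both P2ry12 and Tmem119 the log2 ratios were 2.70 for Apoe, 3.85 for Itgax, 2.67 for Lgals3 and 1.75 for Cst7, and without cells in S or G2/M phase they were 2.73, 4.20, 2.88 and 1.92.

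Because control naive and control day 3 differ in that split, A20 cKO naive was also set against control day 3. Apoe (1.46), Itgax (2.44) and Lgals3 (1.47) were at least 2-fold higher in A20 cKO naive, as were 0.964% of all genes, and Spp1 (−2.75) was lower, as were 1.49%. Cst7 differed by 0.31 (0.07 to 0.54). This pair of libraries differs in both genotype and injury. The comparisons share libraries: control naive, A20 cKO naive and control day 3 each enter several of them.

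Other genes of the state were counted in the same way. In a list of 26 further disease-associated genes, 4 of 22 tested were at least 2-fold higher in A20 cKO day 3 than in control day 3, where 1.86% of all genes were, and 1 was lower, where 2.40% were, with a list median of 0.46. Cybb, a subunit of the phagocyte NADPH oxidase, stood at 273 against 25.9 CPM (log2 ratio 3.40) and Axl, a receptor kinase for apoptotic cells, at 332 against 52.7 CPM (2.65). Cd52, a small surface glycoprotein, was higher by 1.05, and the chemokine Ccl6 was lower at −1.71. Against A20 cKO naive the same list had 4 higher and 1 lower of 22, beside 1.92% and 2.00% of all genes, with Axl at 1.14, Cybb at 1.02 and Ccl6 at −1.24. Of 13 lipid-handling genes tested none was at least 2-fold higher in A20 cKO day 3 than in control day 3 and 1, the lipoprotein receptor Lrp1, was lower at −1.14. None of 15 lysosomal genes and their MiT/TFE regulators passed 2-fold in either direction there, nor in the other 8 comparisons. Of 16 genes of member partners tested, 1 was lower and none higher. The homeostatic list had 2 of 16 genes lower, Fcrls (−3.25) and P2ry12 (−1.37), and none higher, with a list median of −0.52.

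Levels were next resolved into cells. Shares are of cells thinned without replacement to 2000 UMIs each, which left out 20 to 310 shallower cells per library. Cst7 was found in 1.39% (0.562% to 2.85%) of control naive cells, and 2.42%, 6.35% and 5.80% on days 1, 2 and 3. Among A20 cKO cells it was found in 6.32% in naive, and 10.96%, 12.8% and 19.5% (16.2% to 23.1%) on days 1, 2 and 3. Without thinning the 2 ends of this range were 2.46% and 33.0%. Itgax was found in 0.310% to 0.905% of control cells, and in 4.10%, 4.10%, 8.31% and 9.85% of A20 cKO cells in naive and on days 1, 2 and 3. Itgax UMIs were spread over many cells, since no cell of an A20 cKO library held more than 6 of them.

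Lgals3 was found in 0.745% to 1.90% of control cells, in 2.37%, 2.05% and 3.04% of cells in A20 cKO naive and days 1 and 2, and in 5.95% on day 3. Spp1 was found in at most 4.83% of cells of any library, with 3.73% in control day 3. Lpl was found in 9.56% of control naive cells and in 2.41% of A20 cKO naive cells, the highest and lowest shares for that gene. The highest of all these shares was thus the 19.5% of Cst7, and for Spp1 and Lgals3 the sums rested on few cells.

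Apoe differed in the upper part of its distribution. A UMI of Apoe was found in 54.0%, 46.0%, 47.8% and 19.4% of control cells in naive and on days 1, 2 and 3, and in 37.9%, 47.1%, 59.3% and 55.8% of A20 cKO cells. These shares overlapped between genotypes. In the linked libraries, 17 cells held at least 3 markers of another cell type and at most 1 of 8 microglia markers. Of these, 15 (88.2%, 63.6% to 98.5%) held an Apoe UMI, at a median of 1366 UMIs per cell. Such cells may express Apoe themselves, as astrocytes do, so their own RNA and background cannot be told apart in them. Whether single Apoe UMIs in microglia are background was not tested. Spp1, Lpl, Itgax, Cst7, Gpnmb and Lgals3 were found in 0 of the 17, which allows a share of up to 17.6%. Cells with at least 10 Apoe UMIs of 2000 made up 2.39%, 1.24%, 0.977% and 1.01% of control cells, and 4.48%, 6.39%, 10.2% and 13.8% of A20 cKO cells, ordered alike. The 90th percentile over cells was 3 UMIs in control naive and 1 on control day 3, against 3 in A20 cKO naive and 12.3 on A20 cKO day 3. All 4 control shares of cells with at least 10 Apoe UMIs thus lay below the 4 A20 cKO shares.

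Cd9 was found in 76.3% (control day 3) to 94.1% (A20 cKO day 3) of cells, and Cd63 in 50.2% (control naive) to 70.8% (A20 cKO day 3). Of the same 17 cells, 3 (17.6%) held a Cd9 UMI and 2 (11.8%) a Cd63 UMI.

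Single cells with several members at once were rare. The 7 members other than Apoe, Cd9 and Cd63 are called restricted here, and 6 of them were measured. Cells with UMIs of at least 3 restricted members numbered 2 of 502 in control naive, 2 of 3225 on day 1, 7 of 3480 on day 2 and 2 of 1878 on day 3. In A20 cKO they numbered 4 of 2612 in naive, 2 of 830 on day 1, 4 of 626 on day 2 and 10 of 538 on day 3, the last being 1.86% (0.895% to 3.39%). If members were found independently of one another in cells, 0.0392 such cells were expected in control naive and 2.57 in A20 cKO day 3. The control day 2 share was 0.201%, but 0.0292% without barcodes found in more than 1 library and 0.0288% among cells with UMIs of both P2ry12 and Tmem119. The day 3 share in A20 cKO was 0.615% among cells with both of these genes, and 5.02% without thinning. Leaving out cells also redrew the thinned UMIs of other cells, and with another seed alone the share of 1 library left its interval. The effect of a filter and that of a new draw cannot be told apart in these small numbers.

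With at least 2 restricted members, cells numbered 7, 19, 45 and 23 in control naive and days 1, 2 and 3, and 41, 22, 24 and 47 in the matching A20 cKO libraries. As shares these were 1.39%, 0.589%, 1.29% and 1.22% in control and 1.57%, 2.65%, 3.83% and 8.74% (6.49% to 11.4%) in A20 cKO. Observed numbers were 1.29 to 2.79 times those expected under independence, above 1 in all 8 libraries. The interval of the observed share lay above the expected share in 5 of 8 libraries and included it in control day 2 and A20 cKO days 1 and 2. The variance of the number of members found per cell was 1.06 to 1.34 times that expected under independence, beside 1.04 to 1.76 times for the homeostatic list and 1.03 to 1.33 times for the wider disease-associated list.

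**Figure D3:**
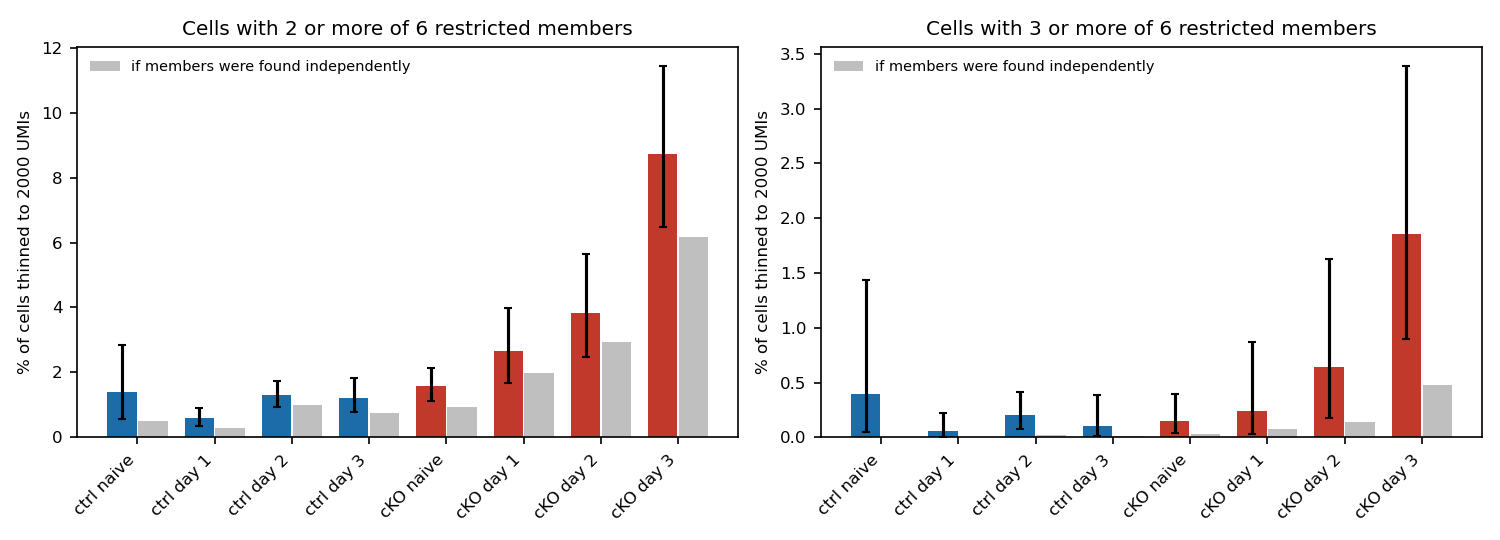
Share of cells, thinned to 2000 UMIs, with UMIs of at least 2 (left) or at least 3 (right) of the 6 measured restricted members in each library; blue bars are control, red bars A20 cKO, error bars 95% Clopper-Pearson intervals, and grey bars the share expected if members were found independently. The A20 cKO day 3 bar on the left reaches 8.74%, above the other 7 libraries, and its error bar does not reach theirs. On the right the bars rest on 2 to 10 cells each.

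Pairs of members were found together slightly more often than independence gives. In 111 of the 137 combinations of pair and library with at least 5 cells expected, more cells than expected held both genes. Apoe and Cd63 were found together more than expected in 8 of 8 libraries, with a median Pearson r over libraries of 0.16 across the cells of a library. Apoe and Lpl were so in 8 of 8 as well, at a median r of 0.08. Cst7 and Lgals3, which reached 5 expected cells in A20 cKO day 3 only, were found together in 2.40 times the expected number of cells. All of these r are weak, and the cells of a library share their preparation.

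In some cells several members were found together, a few of them at high counts, and the following cells were chosen after their values were seen. In control naive, a cell with 5208 UMIs held 375 of Apoe, 15 of Lpl, 7 of Spp1, 3 of Lgals3, 2 of Cst7, 1 of Itgax, 31 of Cd9 and 0 of Gpnmb, beside 5 of P2ry12 and 7 of Tmem119. In control day 3, a cell with 7831 UMIs held 170 of Spp1, 41 of Apoe, 20 of Lpl, 15 of Lgals3, 1 of Cst7 and 0 of Itgax and Gpnmb, beside 1 of P2ry12 and 6 of Tmem119. In A20 cKO day 1, a cell with 4190 UMIs held 221 of Apoe, 4 of Lpl, 2 each of Spp1 and Cst7, 1 each of Itgax and Lgals3 and 0 of Gpnmb, and its barcode was also found in another library. Each of the 3 held 6 or 7 of 8 microglia markers and no UMI of Mrc1 or Ccr2.

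The cells with at least 2 restricted members were set against the other cells of the same library for genes that did not define them, in the 6 libraries with at least 20 such cells. This choice was made after the data were seen, since no library had 20 cells with 3 restricted members. Apoe was higher in these cells in 6 of 6 libraries, at 1789 against 459 CPM in control day 2, 1130.4 against 269.5 CPM in control day 3, 2415 against 795 CPM in A20 cKO naive and 3053 against 1924 CPM in A20 cKO day 3. Its median log2 ratio was 1.79, and those of Cd63 and Cd9 were 0.95 and 0.47, likewise higher in 6 of 6. The wider disease-associated list was higher in 6 of 6 libraries, with a median log2 ratio of 0.45, and the homeostatic list lower in 6 of 6, with a median of −0.35. In control day 3, for instance, the homeostatic list stood at 20370 CPM in these cells and at 29241 CPM in the others.

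Single genes were set side by side in the same way. The chemokine gene Ccl3 was higher in 6 of 6 libraries with a median log2 ratio of 2.52 and Ccl4 in 6 of 6 with 1.88, whereas Ccl12 (−0.06) and Ccl2 (−0.11) were higher in 3 of 6. Fabp5 (2.82) and Ch25h (2.59) had higher medians than Ccl3, over the 2 and 4 libraries with at least 20 of their UMIs. Cd74, the invariant chain of MHC class II, was higher in 6 of 6 with 1.47. The lysosomal protease Ctsb (0.62) and the ferritin heavy chain Fth1 (0.71) were higher in 6 of 6 libraries with every interval above 0. P2ry12 (−0.94), Tmem119 (−0.62), Cx3cr1 (−0.58) and Selplg (−0.56) were lower in 6 of 6. Trem2 itself was at −0.19 and higher in 2 of 6. For P2ry12 the difference was −1.52 in A20 cKO naive and −0.27 in A20 cKO day 3, where the other cells already stood at 868 CPM. Among markers of other cell types, the border macrophage, monocyte and neutrophil lists had no interval above 0 in any of the 6. The lymphocyte list had 1, in control day 2, where these cells held 12 of its UMIs and the others 14. Of the cells with at least 2 restricted members, 3 of 47 in A20 cKO day 3 and 0 in the other 7 libraries held at least 3 markers of 1 other type. Without cells holding at least 3 markers of 1 other type, the median log2 ratios of the homeostatic and the wider disease-associated list kept their sign. Both also stayed within the range over libraries. The part of such cells in the differences of single genes was not tested.

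**Figure D4:**
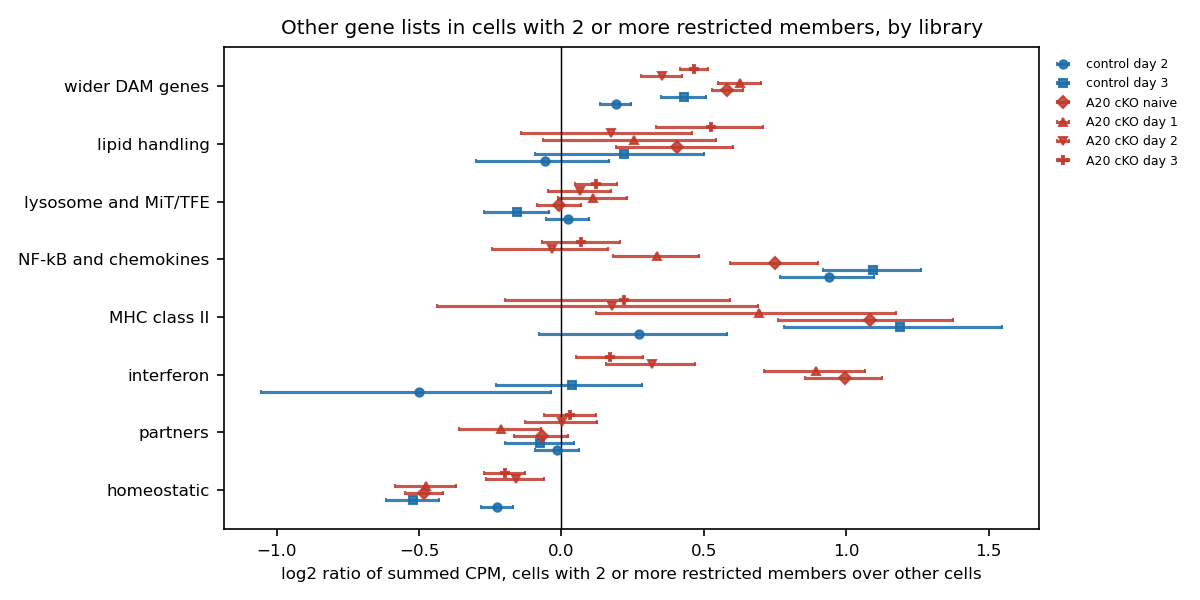
Log2 ratio of the summed CPM of 8 gene lists between cells with at least 2 restricted members and the other cells of the same library, for the 6 libraries with at least 20 such cells. Each symbol is 1 library, blue for control and red for A20 cKO, with 95% conditional intervals. The wider disease-associated list lies right of 0 in all 6 libraries, between 0.19 and 0.63, and the homeostatic list left of 0 in all 6, between −0.52 and −0.16.

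Genes outside the members were ranked by their correlation, across cells, with the number of restricted members found. The ranking covered 3889 genes found in at least 5% of cells of every library. Mitochondrial, ribosomal protein and predicted genes and repeated symbols were left out of it. The 10 with the highest median r over 8 libraries were Ctsb (0.14), Ftl1 (0.12), Fth1 (0.10), Cd52, Ccl3, Lgals3bp, Ccl4, Ctsz, B2m and Lyz2 (0.08). They include lysosomal proteases, both ferritin chains and chemokines. At the other end stood Cst3 (−0.14), P2ry12 (−0.13), Selplg (−0.13), Tmem119 (−0.11) and Gpr34 (−0.10), genes of homeostatic microglia. These values are descriptions over cells that share a library and were thinned to one depth.

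Members also differed between dividing and other cells. A cell was called G2/M where 3 or more genes of a core list of 18 had a UMI, and otherwise S where 3 or more of a core list of 12 did. Apoe was lower in G2/M cells than in cells of neither class in 6 of 6 libraries with at least 20 such cells, with a median log2 ratio of −1.10. In control day 2 it stood at 424 CPM in 1142 G2/M cells and at 499.5 CPM in 2035 other cells, in A20 cKO day 2 at 1070.2 against 1856 CPM, and in A20 cKO day 3 at 589 CPM in 50 G2/M cells against 2275 CPM in 456 others. The gap was thus smallest in control day 2 (−0.24) and widest in A20 cKO day 3 (−1.95). In S cells Apoe was lower in 6 of 7 libraries (median −0.90) and at 0.06, with an interval that included 0, in control day 2.

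Cd63 was lower in G2/M cells in 6 of 6 libraries (median −0.58), with the interval below 0 in 5. Lgals3 was lower there in 5 of 6 (median −1.34), with the interval below 0 in 3, but these libraries held only 1 to 7 Lgals3 UMIs in G2/M cells. In control day 2, with 86 such UMIs, Lgals3 was higher in G2/M cells (0.51, 0.03 to 1.00). Lpl was higher in S cells in 6 of 7 libraries (median 0.63), with the interval above 0 in 3, for example 68.5 against 41.2 CPM in control day 1. The exception was A20 cKO day 3 (−0.52), where 10 Lpl UMIs were counted in S cells. Cst7 (median 0.13) and Itgax (0.01) had no common direction in G2/M cells. Dividing cells held more UMIs in all, a median of 5439 against 3409 in control day 2, and the medians for Apoe, Lpl, Cd9 and Cd63 kept their sign in cells thinned to 2000 UMIs.

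**Figure D5:**
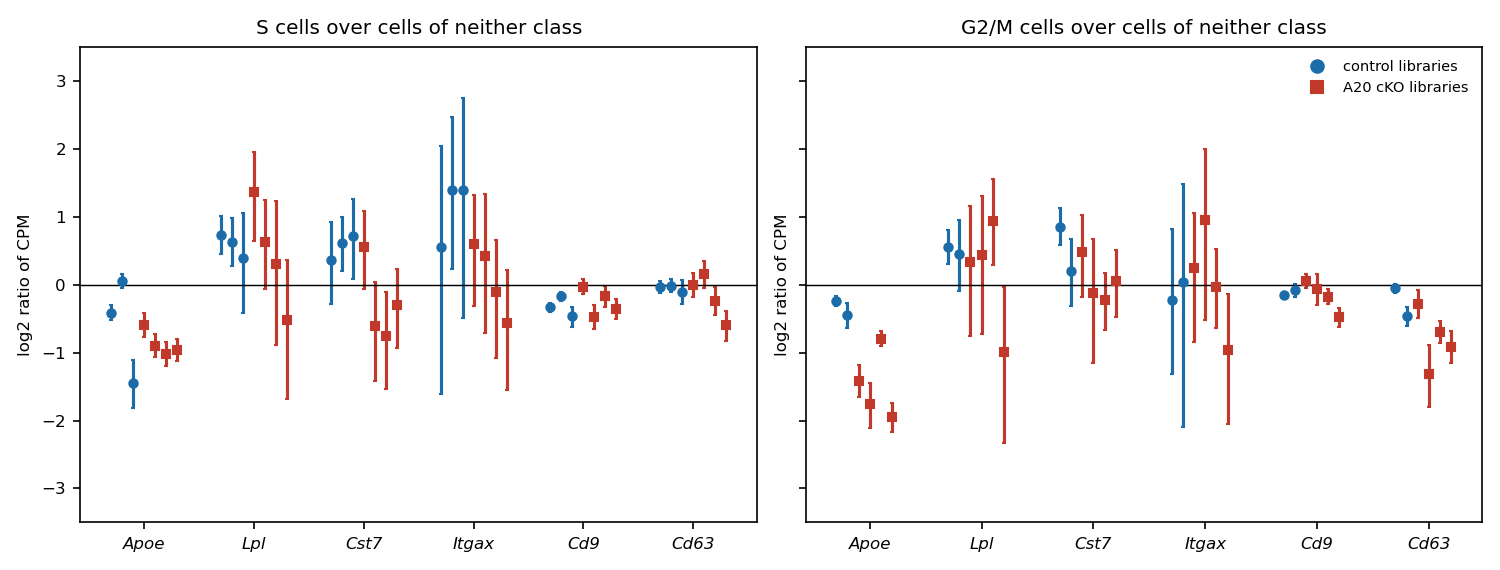
Log2 ratio of CPM in S cells (left) and G2/M cells (right) over cells of neither class for 6 members, with 1 point per library holding at least 20 such cells, blue circles for control and red squares for A20 cKO and 95% conditional intervals as bars. Apoe in G2/M lies below 0 in all 6 libraries, from −1.95 to −0.24, while Lpl in S lies above 0 in 6 of 7.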

How the data were processed

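UMI counts for every gene in every cell were deposited by the authors, 1 sparse matrix a library, not normalized and holding barcodes already called as cells. Per the submitters' processing notes, Cell Ranger 2.1.1 and the build mm10 were used. Labels and methods name different kit versions. The sort gate left out cell aggregates. Droplets that held 2 cells were neither removed nor tested for, no doublet caller was run, and counts of members found together may include them.

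Members were matched by symbol, and the members and all gene lists were chosen with earlier results of these data known. Named are all members, at most 4 genes of another list per comparison (largest log2 ratio, mean of at least 50 CPM, at least 2-fold) and the 10 genes most like the members. Other genes were chosen after their values were seen. Kept cells (at least 1000 UMIs, 500 genes, at most 10% mitochondrial UMIs) were summed per library. Levels are CPM with exact Poisson intervals. Ratios have 0.5 UMIs added, exact conditional intervals and a threshold of 2-fold on genes whose sums together held 100 UMIs or more. Shares have Clopper-Pearson intervals, all at 95%. A sum of 0 allows up to 3 counts. Shares and co-detection used cells thinned to 2000 UMIs. With 1 library per group no p-value was computed. The calculation was tested on simulated data. Python 3.11.15, numpy 2.4.6, scipy 1.17.1 and pandas 2.3.3 were used.

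Alternatives were other cell filters, means over cells, centring on the median gene, 1 UMI added, no filter on low counts, leaving out shared barcodes, cells with markers of other types or the cell with the most UMIs, and other thinning. The distance between libraries that share barcodes was described, not corrected. Coordinates are from GENCODE M21 on GRCm38, and promoter windows from RefSeq on GRCm38.p6.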

Additional observations from a re-analysis of the deposited data

Results flagged for a closer look

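In all, 7 results were singled out because the same day against naive moved in opposite directions in the 2 genotypes, with neither counting interval reaching 0. Apoe differed between genotypes by 1.83 on the log2 scale on day 1 (0.64 in A20 cKO and −1.18 in control), by 2.13 on day 2 and by 3.02 on day 3. Lpl differed by 1.74 on day 1 (1.12 and −0.62), by 1.41 on day 2 and by 2.38 on day 3. Cd9 differed by 1.14 on day 3, with 0.19 in A20 cKO and −0.94 in control. With 1 library per group these differences were not tested. Control naive enters all 7 and A20 cKO naive likewise. The day 3 control ratios cross the split between libraries that share barcodes and the others. A20 cKO naive shared barcodes with the A20 cKO days at lower rates than these did with one another. For Apoe, 20.8% of the control naive UMIs came from 1 cell.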

How the results depend on the processing

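No paired analysis was possible because each group was 1 library and the labels carry no replicate numbers. Over 11 alternatives, 726 values of 66 member ratios were recomputed, of which none of the called ones changed sign and 18 crossed the 2-fold threshold. Members past 2-fold on control day 1 numbered 1 as reported, 0 as a mean over cells, 0 without the cell with the most UMIs of each gene and 4 with no filter on low counts. On control day 2 they numbered 2, and 1 without that cell. On A20 cKO day 1 they numbered 1, 2 with no filter and 0 in cells with P2ry12 and Tmem119. The other 6 comparisons stayed within 1.5 times under every alternative run, and leaving out barcodes found in more than 1 library left all 9 so.

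Counts per cell depended on depth. The median variance ratio was 1.22, 1.11 when thinned to 1000 UMIs and 1.35 with no thinning. The share of cells with at least 3 restricted members, when thinned to 1000 UMIs, was 0% in control naive and A20 cKO naive, 0.0279% in control day 2 and 0.179% in A20 cKO day 3. With no thinning it was 0.865% in control day 2, 0.614% in control day 3, and 1.13%, 2.55% and 5.02% in A20 cKO days 1, 2 and 3. With another seed it was 0.160% in A20 cKO day 2, against 0.639% as reported. Without shared barcodes control day 2 gave 0.0292%, and in cells with P2ry12 and Tmem119, added after seeing the data, control day 2 gave 0.0288% and A20 cKO days 2 and 3 gave 0.172% and 0.615%. Cells with at least 1 restricted member, also added later, gave medians of −0.12 for the homeostatic and 0.18 for the wider disease-associated list, with the direction kept in 8 of 8 libraries. Leaving out cells also redrew the thinned UMIs of other cells, so a filter and a new draw cannot be told apart in these shares. The cause of these moves, other than depth, was not tested. Of 72 member shares, 54 moved with no thinning and 56 at 1000 UMIs. Depth limits statements on Gpnmb and on cells with 3 or more members.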

Other observations

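Genes that encode chemokines stood beside the members in several comparisons. Ccl4, a chemokine for monocytes and T cells, was at 662 CPM in A20 cKO day 3 against 209 CPM in A20 cKO naive and 116 CPM in control day 3. Ccl3 was at 356 CPM in A20 cKO day 3 and at 65.2 CPM in control day 3, but in control day 1 it reached 892 CPM against 87.0 CPM in control naive, at a time when Apoe, Lpl and Cd9 were below their control naive levels. Of 11 NF-κB and chemokine genes tested on control day 1, 9 exceeded control naive by 2-fold or more, as did 3.82% of all genes tested.

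Of 12 interferon-response genes tested, 12 were at least 2-fold higher in A20 cKO naive than in control naive, where 7.43% of all genes were, with a list median of 3.17, and 11 of 12 on control day 3 (3.03), where 8.76% were. Cst7 was at least 2-fold higher in both of these comparisons and Lpl at least 2-fold lower in both. Both comparisons cross the split between libraries and share control naive.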
